A study of Arabidopsis thaliana with 21 samples.

Results

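The genes described here are the cytokinin receptors and the type-B response regulators of Arabidopsis thaliana roots, the first and the last step of cytokinin signal transduction. They are 9 of the 32833 genes in the deposited count table, picked by gene ID: the 3 receptors AHK2 (AT5G35750), AHK3 (AT1G27320) and AHK4 (AT2G01830), and the 6 regulators ARR1 (AT3G16857), ARR2 (AT4G16110), ARR10 (AT4G31920), ARR11 (AT1G67710), ARR12 (AT2G25180) and ARR14 (AT2G01760). Poly-A RNA of roots was sequenced in 21 libraries. Root libraries were taken before treatment (0 h), and at 6, 12 and 24 h with a mock treatment or with AtCEP5, with 3 libraries in each of the 7 groups. AtCEP5 is a member of the CEP family, short secreted peptides that act through receptor kinases, and the study's title places CEPs between auxin and cytokinin signalling in the control of root growth. The sources used here do not state peptide dose, plant line or plant age.

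Cytokinin binds AHK2, AHK3 and AHK4, membrane histidine kinases that pass a phosphate through histidine phosphotransfer proteins (AHPs) to the response regulators in the nucleus. Type-B regulators are transcription factors with a MYB-like DNA-binding domain, and they switch on the cytokinin response genes, among them the type-A regulators that dampen the same pathway. In roots the pathway is known for limiting the size of the meristem, where AHK3, ARR1 and ARR12 promote the exit of cells into differentiation, and for vascular development, where AHK4 has a leading part.

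Libraries held between 10334319 and 14345476 counts. The share of counts on ribosomal RNA genes was 0.270 to 0.601% outside 2 libraries, mock 6 h replicate 2 (2.20%) and AtCEP5 12 h replicate 3 (1.96%). In the group before treatment, 0 h replicate 1 had the lowest value of its group for 8 of the 9 genes. Other groups held similar libraries: mock 6 h replicate 3 and AtCEP5 24 h replicate 3 were lowest for 7 genes each. Mock 24 h replicate 1 and AtCEP5 6 h replicate 3 were lowest for 6 each. The labels name root meristem cells, and all 7 meristem markers searched (PLT1, PLT2, SHR, SCR, WOX5, CYCB1;1 and BBM) passed the filter on low counts. All 6 markers of differentiated root tissue (EXPA7, COBL9, CASP1, CASP2, GPAT5 and RHD6) did so too, with summed levels of 202 to 355 CPM, so the libraries held more than meristem.

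All 9 genes had enough counts to be tested. Between AtCEP5 and mock, averaged over the 3 times, AHK2, AHK3, ARR1 and ARR11 were higher with AtCEP5 and ARR10 was lower. The bases before these 5 genes are shown because type-B regulators bind short sites with the core AGATT or AGATC, and members of the pathway can be targets of it. Each sequence is the 200 bases before the annotated gene start in the RefSeq TAIR10.1 assembly, written 5′ to 3′ on the gene's strand. Capitals mark matches to AGATT or AGATC on either strand.
AHK2, chr5:13916806-13917005, minus strand: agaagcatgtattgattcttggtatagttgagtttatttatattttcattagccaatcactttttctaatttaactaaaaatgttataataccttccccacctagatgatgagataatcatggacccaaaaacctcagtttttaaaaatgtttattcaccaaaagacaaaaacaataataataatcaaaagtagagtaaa
AHK3, chr1:9486689-9486888, plus strand: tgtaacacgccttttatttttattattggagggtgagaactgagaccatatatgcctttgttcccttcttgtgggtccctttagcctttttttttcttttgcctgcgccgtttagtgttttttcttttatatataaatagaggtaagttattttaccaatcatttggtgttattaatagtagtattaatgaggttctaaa
ARR1, chr3:5755514-5755713, plus strand: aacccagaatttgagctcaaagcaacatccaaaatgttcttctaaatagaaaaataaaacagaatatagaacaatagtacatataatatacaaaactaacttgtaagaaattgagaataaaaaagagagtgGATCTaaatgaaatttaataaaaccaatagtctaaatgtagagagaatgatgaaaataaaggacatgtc
ARR10, chr4:15447043-15447242, minus strand: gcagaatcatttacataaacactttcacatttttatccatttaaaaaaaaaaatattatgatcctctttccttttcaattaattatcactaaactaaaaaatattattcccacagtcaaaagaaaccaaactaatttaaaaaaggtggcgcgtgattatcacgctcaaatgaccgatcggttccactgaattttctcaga
ARR11, chr1:25379218-25379417, minus strand: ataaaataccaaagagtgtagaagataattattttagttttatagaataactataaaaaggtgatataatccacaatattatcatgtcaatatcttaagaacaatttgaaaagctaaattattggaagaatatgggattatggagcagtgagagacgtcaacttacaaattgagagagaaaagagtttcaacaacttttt
The ARR1 window held 1 match, an AGATC on the opposite strand placed 69 bases before the gene start, and the windows of AHK2, AHK3, ARR10 and ARR11 held 0. Among the other 4 genes, the windows of AHK4 and ARR14 held 2 matches each and those of ARR2 and ARR12 held 1 each. Of 27443 windows of the same length before protein-coding nuclear genes, 64.5% held at least 1 match, with AGATT in 54.9% and AGATC in 21.6%. A match describes the letters and not a bound site.

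The receptors are encoded on chromosomes 5 (AHK2, 13911283 to 13916805), 1 (AHK3, 9486889 to 9492632) and 2 (AHK4, 362983 to 369707), and none shares bases with another gene. AHK2, a receptor that acts largely together with AHK3, showed the widest response of the receptors. Its level, in CPM (counts relative to library size, scaled with TMM factors), was 19.5, 22.0 and 10.6 in the 3 mock libraries at 6 h and 37.8, 38.7 and 29.0 with AtCEP5. At 12 h it was 18.9, 24.2 and 24.3 CPM with mock and 23.3, 32.5 and 38.6 CPM with AtCEP5. At 24 h the values were 14.5, 26.3 and 20.6 CPM with mock and 35.1, 27.9 and 23.6 CPM with AtCEP5. The groups did not overlap at 6 h and overlapped at 12 and 24 h. In edgeR's quasi-likelihood test AHK2 rose at 6 h by a log2 fold change of 1.02 (SE 0.26, adjusted p = 0.0131), a 2.03-fold difference. Removal of AtCEP5 6 h replicate 2 ended this call (adjusted p = 0.0521), as did removal of mock 6 h replicate 3 (0.0798), the mock library with the lowest AHK2 level. At 12 h the log2 fold change was 0.48 (SE 0.26, adjusted p = 0.256) and at 24 h 0.49 (SE 0.26, adjusted p = 0.302). Averaged over the 3 times, AHK2 rose by 0.66 (SE 0.15, adjusted p = 0.00164). In RNA of whole tissue, here and below, a change in the number of cells of a type and a change in RNA per cell cannot be told apart.

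AHK3, the receptor best known for meristem size and leaf senescence, had a smaller difference in the same direction. At 6 h its level was 63.9, 67.5 and 51.9 CPM with mock and 87.3, 90.1 and 78.1 CPM with AtCEP5. By 12 h the values were 61.0, 63.1 and 70.1 CPM with mock and 68.0, 70.7 and 100.8 CPM with AtCEP5. At 24 h it was 52.4, 75.8 and 56.7 CPM with mock and 78.1, 67.9 and 65.04 CPM with AtCEP5. Every AtCEP5 library lay above every mock library at 6 h, and the groups overlapped later. The log2 fold changes of AHK3 were 0.48 at 6 h (SE 0.16, adjusted p = 0.0612), 0.30 at 12 h (SE 0.16, adjusted p = 0.260) and 0.19 at 24 h (SE 0.16, adjusted p = 0.595), and none passed alone, while DESeq2 called the value at 6 h (adjusted p = 0.0398). The average of the 3 times did pass, with a log2 fold change of 0.32 (SE 0.09, adjusted p = 0.0114).

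AHK4, also called CRE1 or WOL, did not pass in any comparison of AtCEP5 with mock. Its level was 73.4, 74.7 and 51.0 CPM with mock at 6 h, where AtCEP5 libraries gave 77.6, 79.0 and 59.8 CPM. At 12 h it was 72.0, 81.6 and 97.2 CPM with mock and 55.1, 61.7 and 99.0 CPM with AtCEP5. At 24 h it was 65.3, 95.7 and 82.2 CPM with mock and 78.4, 75.6 and 64.4 CPM with AtCEP5. The groups overlapped at every time. The averaged log2 fold change of AHK4 was -0.09 (SE 0.12, adjusted p = 0.629), with a 95% interval from -0.33 to 0.16. Its response cannot be called absent, since the interval spans differences in both directions.

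**Figure D1:**
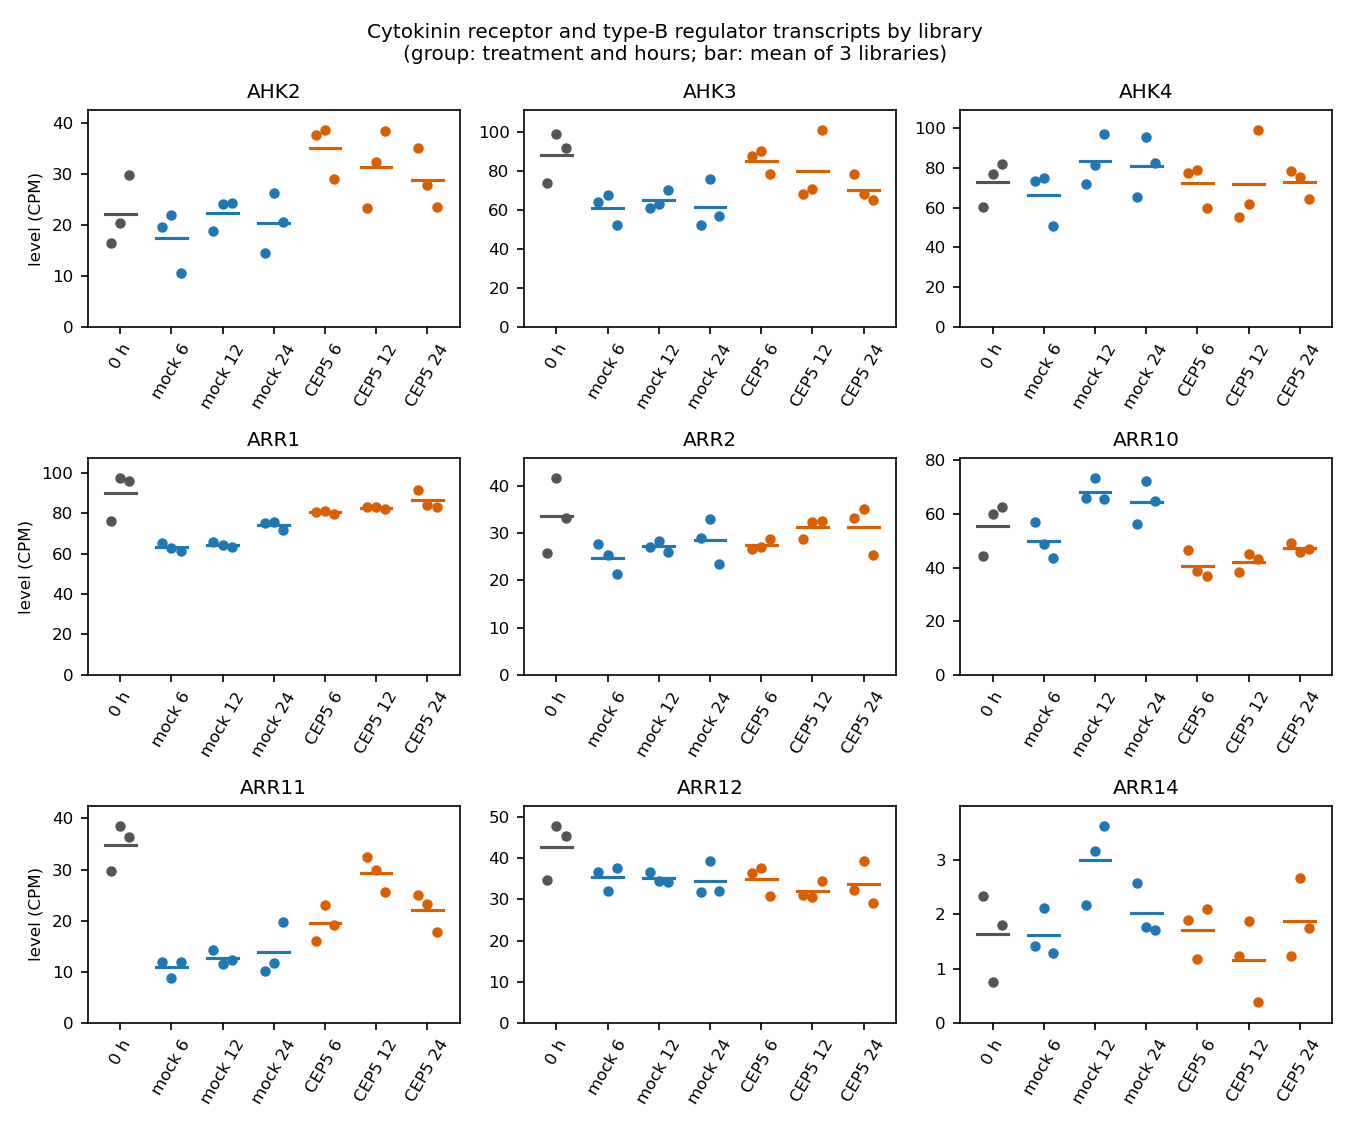
Level of each gene in CPM (y axis, linear, from 0) in the 3 libraries of each group (x axis: before treatment, then mock and AtCEP5 at 6, 12 and 24 h), with a bar at the mean of the 3. ARR1 lies at 61.3 to 75.5 CPM in all mock libraries and at 79.7 to 91.8 CPM in all AtCEP5 libraries, and ARR10 with mock is highest at 12 h.

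Among the type-B regulators, ARR1 on chromosome 3 (5755714 to 5759443), with ARR10 and ARR12 a main transcriptional output of cytokinin in roots, was higher with AtCEP5 at each of the 3 times in every library. Its level was 65.5, 62.8 and 61.3 CPM with mock at 6 h and 81.0, 81.2 and 79.7 CPM with AtCEP5. By 12 h ARR1 was at 65.8, 64.5 and 63.4 CPM with mock and 83.2, 83.3 and 82.4 CPM with AtCEP5. At 24 h it was 75.5, 75.5 and 72.0 CPM with mock and 91.8, 84.4 and 83.4 CPM with AtCEP5. The lowest of the 9 AtCEP5 libraries lay above the highest of the 9 mock libraries. For this and the other statements on overlap, the number of such genes among all those tested was not counted. The log2 fold change of ARR1 was 0.35 at 6 h (SE 0.10, adjusted p = 0.0292), 0.36 at 12 h (SE 0.10, adjusted p = 0.0226) and 0.22 at 24 h (SE 0.10, adjusted p = 0.232). The call at 6 h was lost without any 1 of its 6 libraries (adjusted p between 0.0604 and 0.0913), and that at 12 h when AtCEP5 12 h replicate 1 (0.0537) was removed, or mock 12 h replicate 3 (0.0578). Averaged over the times ARR1 rose by 0.31 (SE 0.06, adjusted p = 0.000333), a 1.24-fold difference. The ARR1 locus shares 69 bases with AT3G16860 on the other strand, and whether reads were counted by strand is not given in the sources used here.

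ARR11 (chromosome 1, 25376679 to 25379217), a type-B regulator of lower level, had the largest fold change of the 9 genes in the average over the times. It was at 11.9, 8.71 and 11.9 CPM with mock at 6 h and at 16.04, 23.0 and 19.2 CPM with AtCEP5. At 12 h it was at 14.2, 11.5 and 12.4 CPM with mock and at 32.4, 29.9 and 25.6 CPM with AtCEP5. At 24 h it was at 10.2, 11.7 and 19.7 CPM with mock and at 24.9, 23.3 and 17.7 CPM with AtCEP5. The groups were apart at 6 and 12 h and overlapped at 24 h, where mock replicate 3 stood above the other 2 mock libraries. ARR11 rose by a log2 fold change of 1.21 at 12 h (SE 0.21, adjusted p = 0.000378), a call kept without any 1 library, and by 0.84 at 6 h (SE 0.22, adjusted p = 0.0130). Removal of replicate 2 of AtCEP5 at 6 h ended the call there (adjusted p = 0.0790), and so did that of replicate 2 of mock (0.0743). At 24 h the log2 fold change of 0.66 missed the threshold (SE 0.21, adjusted p = 0.0551). Without mock 24 h replicate 3 it was 0.996 and passed (adjusted p = 0.00251), and it also passed without AtCEP5 24 h replicate 3 (0.0342). Averaged over the times ARR11 rose by 0.90 (SE 0.12, adjusted p = 5.69e-06), a 1.87-fold difference.

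ARR10 (chromosome 4, 15444053 to 15447042) moved the other way. Its level was 57.0, 48.7 and 43.7 CPM with mock at 6 h and 46.4, 38.7 and 36.8 CPM with AtCEP5. At 12 h it was 66.1, 73.4 and 65.5 CPM with mock and 38.3, 45.1 and 43.4 CPM with AtCEP5. At 24 h it was 56.1, 72.2 and 64.8 CPM with mock and 49.1, 45.9 and 47.1 CPM with AtCEP5. All AtCEP5 libraries lay below all mock libraries at 12 and at 24 h, and the groups overlapped at 6 h. The log2 fold change of ARR10 was -0.69 at 12 h (SE 0.14, adjusted p = 0.00172), a call kept without any 1 library, -0.29 at 6 h (SE 0.14, adjusted p = 0.203) and -0.44 at 24 h (SE 0.14, adjusted p = 0.0566). The value at 24 h passed without mock 24 h replicate 1 (-0.53, adjusted p = 0.0407). Averaged over the times, ARR10 fell by a log2 fold change of -0.48 (SE 0.08, adjusted p = 9.71e-05).

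The other 3 regulators did not pass in any comparison of AtCEP5 with mock. ARR2 (chromosome 4, 9112686 to 9116164), known as a partner of AHK3 in leaf senescence, was at 21.4 to 33.0 CPM in the mock libraries and at 25.4 to 35.2 CPM in those with AtCEP5. Its averaged log2 fold change was 0.16 (SE 0.09, adjusted p = 0.216), with a 95% interval from -0.04 to 0.36. ARR12 (chromosome 2, 10724301 to 10727272), which works with ARR1 at the meristem border, was at 31.7 to 39.3 CPM with mock and at 29.2 to 39.5 CPM with AtCEP5. Its averaged log2 fold change was -0.06 (SE 0.08, adjusted p = 0.598), with a 95% interval from -0.24 to 0.11. The interval thus leaves out a change as large as the averaged ones of ARR1 or ARR10.

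ARR14 (chromosome 2, 332902 to 334760) had 4 to 52 counts in a library, the fewest of the 9 genes. At 12 h its level was 2.17, 3.18 and 3.64 CPM with mock and 1.24, 1.88 and 0.384 CPM with AtCEP5, and those groups did not overlap. The log2 fold change at 12 h was -1.31 (SE 0.45, adjusted p = 0.0577), and it passed without AtCEP5 12 h replicate 2 (-1.81, adjusted p = 0.0383) and in DESeq2 (adjusted p = 0.0468). At 6 h ARR14 gave 0.10 (SE 0.46, adjusted p = 0.921) and at 24 h -0.10 (SE 0.44, adjusted p = 0.947). The ARR14 locus shares 98 bases with AT2G01770 on the other strand.

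In counts, 3 of the 9 genes passed at 6 h, all higher with AtCEP5 (AHK2, ARR1 and ARR11), where 11.3% of the 19938 genes tested were called, 5.94% higher and 5.33% lower. At 12 h it was again 3 of 9, with ARR1 and ARR11 higher and ARR10 lower, against 12.1% of all genes tested (6.71% higher and 5.41% lower). At 24 h edgeR called 0 of 9, with 3 at an unadjusted p under 0.05, against 7.81% of all genes (3.7% higher and 4.12% lower); DESeq2 called 2 (ARR10 and ARR11). For the average of the 3 times 5 of 9 passed, 4 higher and 1 lower, against 30.3% of all genes tested (14.8% higher and 15.5% lower). The median log2 fold change of the 9 genes in that average was 0.16, beside 0.00 for all genes tested. Those 5 calls held in each alternative run, including each fit that left out 1 of the 18 mock and AtCEP5 libraries.

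At 6 h the deviations of same-numbered mock and AtCEP5 libraries correlated weakly, with r of 0.182, 0.117 and 0.241. Libraries with different numbers reached 0.354 at 24 h (AtCEP5 replicate 3 with mock replicate 1). Such values thus cannot show that the numbers pair the libraries. With the replicate number as a block, in a fit of the 6 libraries at 6 h, 5 of the 9 genes passed. Calls over all genes rose in that fit too, as given below, so the count does not set these genes apart. Among the 9 genes, AHK3 was added to the calls (log2 fold change 0.48, adjusted p = 0.000933), and so was ARR10 (-0.29, adjusted p = 0.0302). Without both libraries of higher ribosomal RNA, 2 of the 9 genes passed at 6 h, AHK2 and AHK3, and the calls of ARR1 (adjusted p = 0.0820) and ARR11 (0.0692) were lost. The count over all genes in that fit is not given here, so these changes cannot be read as particular to the 9 genes.

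**Figure D2:**
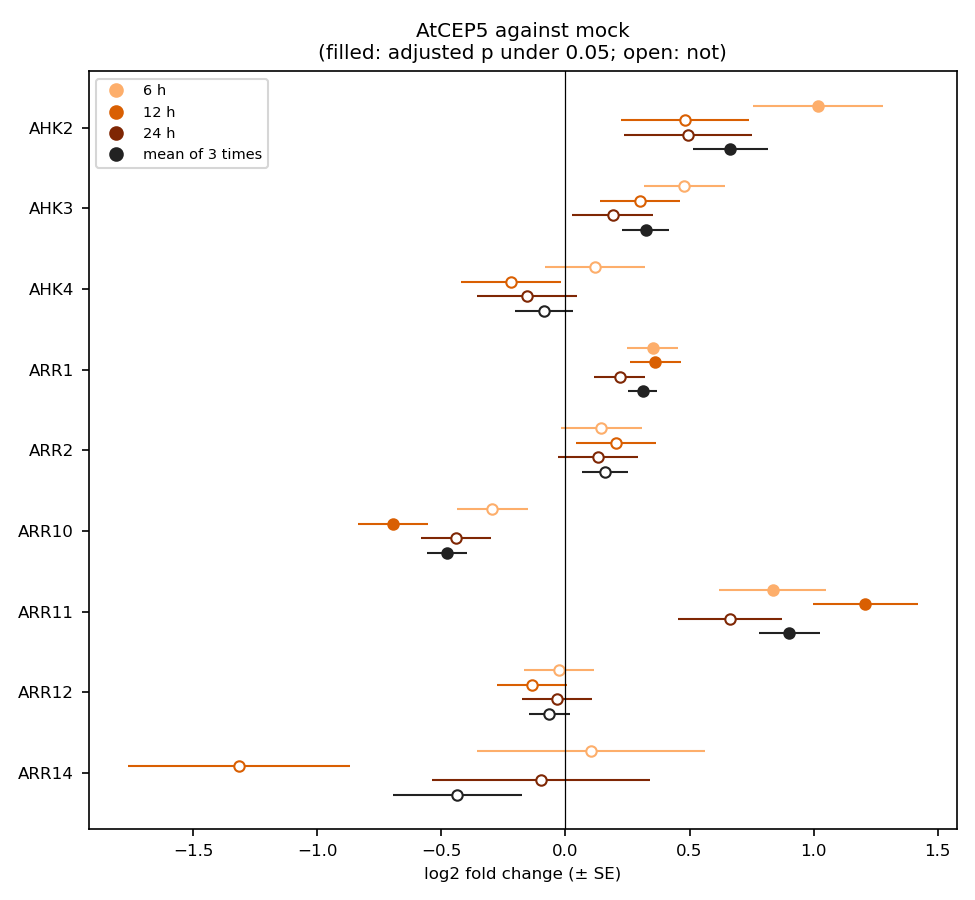
Log2 fold change of AtCEP5 against mock (x axis) for each of the 9 genes, at 6, 12 and 24 h and for their average, with bars of 1 SE; filled points passed and open points did not. AHK2, AHK3, ARR1 and ARR11 lie right of 0 at every time, ARR10 left of 0 at every time, and ARR12 near 0.

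Whether the response to AtCEP5 differed among the 3 times was tested as such. For 0 of the 9 genes did it pass in edgeR (0 also at an unadjusted p under 0.05, and 0 in DESeq2), where 0.0201% of all genes were called. The difference between the responses at 12 and 6 h was -0.40 for ARR10 on the log2 scale (95% interval from -0.83 to 0.03) and 0.37 for ARR11 (from -0.27 to 1.01). Within one treatment, over 6, 12 and 24 h, 0 of the 9 genes passed with mock (4.03% of all genes called) and 0 with AtCEP5 (5.61%), in edgeR and in DESeq2. At an unadjusted p under 0.05 there was 1 gene in each series. With mock it was ARR10, which averaged 49.8 CPM ± 6.69 (SD, n = 3) at 6 h and 68.4 ± 4.42 at 12 h (adjusted p = 0.124 over the 3 times). With AtCEP5 it was ARR11, at 19.4 CPM ± 3.49 at 6 h, 29.3 ± 3.41 at 12 h and 22.0 ± 3.80 at 24 h (adjusted p = 0.194).

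Against the libraries taken before treatment, the genes that were higher with AtCEP5 than with mock had mostly fallen with mock. These comparisons share the 3 libraries at 0 h, and the mock libraries also serve the comparisons above, so they are not independent of each other. At 0 h AHK2 was at 16.4, 20.4 and 29.9 CPM and AHK3 at 73.7, 98.9 and 91.8 CPM. ARR1 was at 76.0, 97.6 and 96.3 CPM, ARR11 at 29.6, 38.6 and 36.4 CPM and ARR10 at 44.2, 59.8 and 62.4 CPM. The levels of ARR1 at 0 h were above all 9 mock libraries and overlapped those with AtCEP5, while the levels of AHK2 at 0 h overlapped both.

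With mock, 4 of the 9 genes were lower at 6 h than before treatment (of all genes tested 38.7% were called, 20.5% lower), 3 at 12 h (37.4% called, 19.7% lower) and 3 at 24 h (35.1% called, 18.5% lower). ARR11 had fallen by a log2 fold change of -1.68 at 6 h (SE 0.21, adjusted p = 2.32e-06), -1.46 at 12 h (SE 0.21, adjusted p = 1.25e-05) and -1.33 at 24 h (SE 0.21, adjusted p = 4.19e-05). ARR1 was lower by -0.51 at 6 h (SE 0.10, adjusted p = 0.000449), -0.48 at 12 h (SE 0.10, adjusted p = 0.000891) and -0.28 at 24 h (SE 0.10, adjusted p = 0.0403). AHK3 was lower by -0.53, -0.44 and -0.52 at the 3 times (SE 0.16 each, adjusted p = 0.0130, 0.0349 and 0.0168), and ARR2 by -0.44 at 6 h (SE 0.16, adjusted p = 0.0372). The calls of ARR11 at all 3 times and of ARR1 at 6 and 12 h were kept without any 1 library. Without 0 h replicate 2 the calls of AHK3 were lost at the 3 times (adjusted p = 0.0568, 0.113 and 0.0604), as were those of ARR2 at 6 h (0.252) and ARR1 at 24 h (0.132). Those of AHK3 were also lost without mock 6 h replicate 3 (0.0737), 0 h replicate 3 (0.0685 at 12 h), mock 12 h replicates 1 (0.0981) or 2 (0.0703), and mock 24 h replicates 1 (0.0744) or 3 (0.0615). That of ARR2 was lost without 0 h replicate 3 (0.0586) or mock 6 h replicates 2 (0.0678) or 3 (0.153), and that of ARR1 at 24 h without 0 h replicate 3 (0.132) or any 1 mock 24 h library (0.0591 to 0.101). In fits without 0 h replicate 1, the counts rose to 5, 5 and 4 of the 9 genes, all lower. Over all genes, the main fit called 7724, 7455 and 6996 at 6, 12 and 24 h. Fits with 1 library left out, that of 0 h replicate 1 included, called 6406 to 7237, 6021 to 7220 and 5538 to 7129.

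With AtCEP5, 2 of the 9 genes were lower at 6 h than before treatment (of all genes tested 27.7% were called, 14.6% lower), 2 at 12 h (23.7% called, 13.2% lower) and 1 at 24 h (28% called, 15.2% lower). ARR11 fell by a log2 fold change of -0.84 at 6 h (SE 0.20, adjusted p = 0.00362) and -0.67 at 24 h (SE 0.20, adjusted p = 0.0177), with -0.25 at 12 h (SE 0.20, adjusted p = 0.398). ARR10 fell by -0.45 at 6 h (SE 0.14, adjusted p = 0.0202) and -0.39 at 12 h (SE 0.14, adjusted p = 0.0464), with -0.23 at 24 h (SE 0.14, adjusted p = 0.242). ARR12 fell by -0.41 at 12 h (SE 0.14, adjusted p = 0.0354). The call of ARR11 at 6 h was kept without any 1 library, and without 0 h replicate 2 every other call with AtCEP5 was lost (adjusted p = 0.0529 to 0.142). The call of ARR10 at 6 h was also lost without 0 h replicate 3 (0.0873) or AtCEP5 6 h replicates 2 (0.0631) or 3 (0.0733), and that at 12 h without 0 h replicate 3 (0.190) or any 1 AtCEP5 12 h library (0.0697 to 0.143). That of ARR12 was lost without 0 h replicate 3 (0.115) or AtCEP5 12 h replicates 1 (0.0770) or 2 (0.122), and that of ARR11 at 24 h without AtCEP5 24 h replicate 3 (0.0736). AHK2 was 0.66 higher at 6 h on the log2 scale (SE 0.26, adjusted p = 0.0606), and passed in DESeq2 (0.0487) and without 0 h replicate 3 (0.93, adjusted p = 0.0166). ARR1 was between -0.16 and -0.06 at the 3 times, with no call. Without 0 h replicate 1, 4, 2 and 2 of the 9 genes passed at 6, 12 and 24 h, all lower. Over all genes, the main fit called 5527, 4718 and 5583 at these times. Fits with 1 library left out, that of 0 h replicate 1 included, called 3821 to 5187, 3285 to 4598 and 3807 to 5391.

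Markers of shoot tissue moved with these comparisons. The summed level of the 6 shoot markers (RBCS1A, LHCB1.1, LHCB2.1, CAB3, PSBR and RCA) was 480.5 to 1025 CPM at 0 h, 225 to 494 CPM with mock and 235 to 575 CPM with AtCEP5. Of the 5 tested, all were lower at 6 h with mock, RBCS1A by a log2 fold change of -1.35 (SE 0.32, adjusted p = 0.00208). With mock 5 passed as lower at 12 h and 2 at 24 h, and with AtCEP5 4, 2 and 4 at 6, 12 and 24 h. Between AtCEP5 and mock, averaged over the times, 0 of the 5 passed. Their part in the differences from 0 h was not tested.

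**Figure D3:**
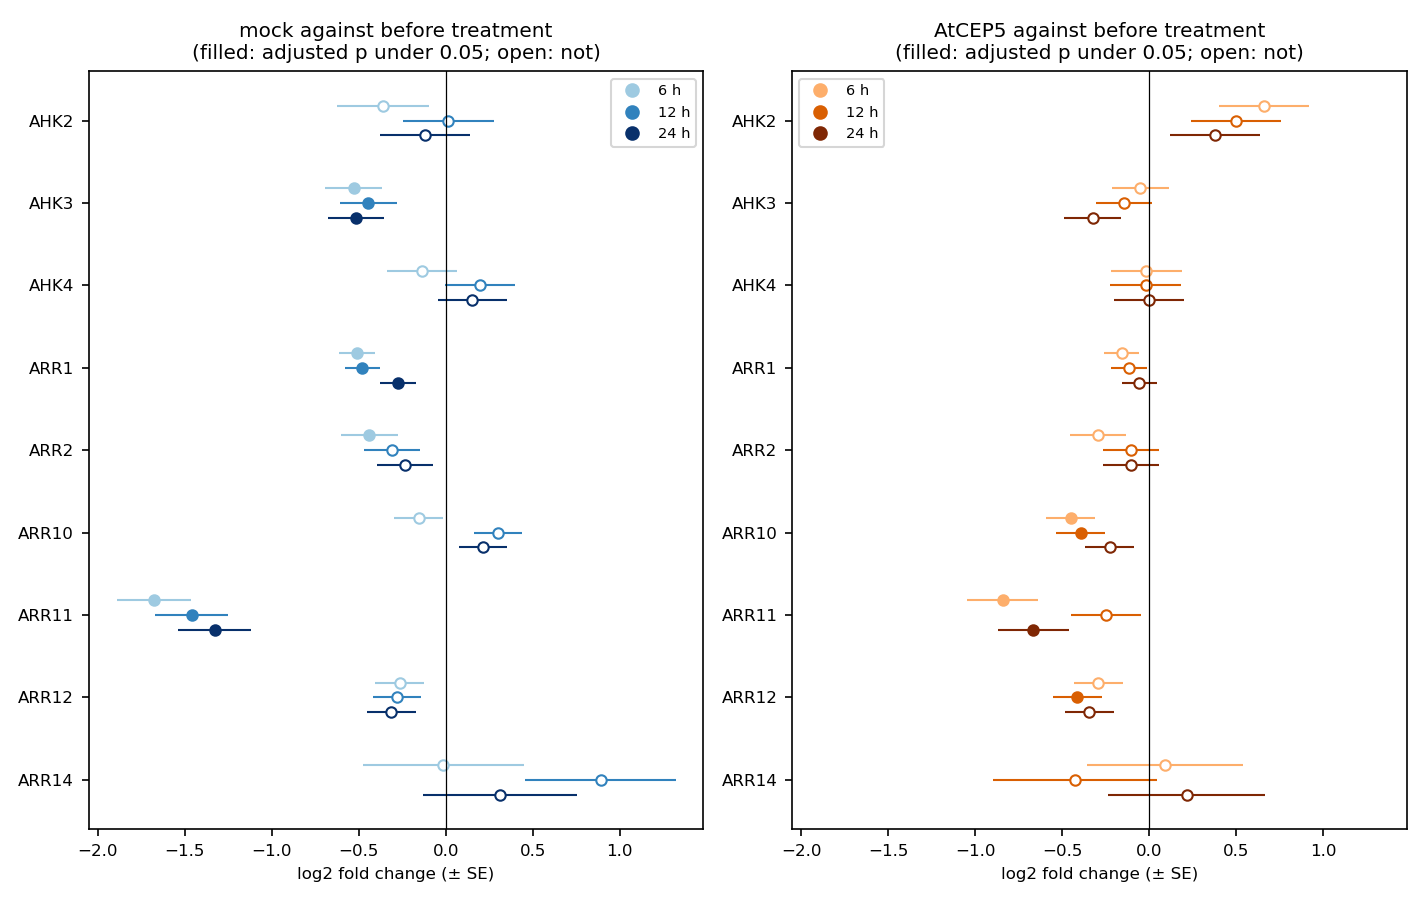
Log2 fold change against the libraries taken before treatment (x axis), for mock (left) and AtCEP5 (right) at 6, 12 and 24 h, with bars of 1 SE; filled points passed. ARR11, ARR1 and AHK3 lie left of 0 at all times with mock, and with AtCEP5 the points of ARR1 lie between -0.16 and -0.06.

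Levels were compared between genes per length, as FPKM (fragments relative to exon length and library size). Averaged over the 21 libraries, ARR10 had a level of 24.3 FPKM and ARR1 23.1, followed by AHK4 at 16.3, AHK3 at 16.2 and ARR12 at 15.5. ARR2 was at 11.0 FPKM, ARR11 at 8.73 and AHK2 at 5.72, and ARR14 was lowest at 1.15. AHK2 was eighth and ARR14 ninth in all 7 groups, and ARR14 overlapped none of the others. AHK2 overlapped ARR11, its neighbour in the order, in all 3 mock groups and with AtCEP5 at 6 and 24 h.

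The top of the order changed with the group. ARR10 was first in the 3 mock groups, at 22.1 FPKM ± 3.56 (SD, n = 3), 31.6 ± 1.98 and 30.0 ± 4.86 at 6, 12 and 24 h, with ARR1 next at 18.1 ± 1.08, 19.3 ± 0.0874 and 22.3 ± 0.858. ARR1 was first in the 3 AtCEP5 groups, at 24.1 FPKM ± 0.463, 24.6 ± 0.793 and 26.3 ± 1.11, where ARR10 was at 18.8 ± 2.38, 19.3 ± 1.53 and 22.2 ± 0.446. The libraries of the pair did not overlap with mock at 12 and 24 h or with AtCEP5 at any time. They overlapped with mock at 6 h and before treatment, where ARR1 was at 27.0 FPKM ± 4.02 and ARR10 at 25.8 ± 4.97. AHK3 and AHK4 stood next to each other, and overlapped, with mock at 6 h and with AtCEP5 at 12 and 24 h.

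As shares of the summed FPKM of their class, described without a test, some members of both classes differed between mock and AtCEP5. Within the receptors, AHK4 made up 44.5 to 51.1% of the sum in the 9 mock libraries, 35.4 to 43.7% in the 9 with AtCEP5 and 38.7 to 39.8% at 0 h. AHK2 made up 9.52 to 14.5% with mock, 15.7 to 20.0% with AtCEP5 and 10.6 to 14.9% at 0 h. Neither receptor's share overlapped between mock and AtCEP5, while that of AHK3 did, at 35.7 to 46.0% and 39.8 to 46.9%. Within the regulators, ARR10 made up 29.3 to 39.5% with mock, 21.7 to 28.0% with AtCEP5 and 24.8 to 27.0% at 0 h. ARR1 made up 22.4 to 28.46% with mock, 28.48 to 32.1% with AtCEP5 and 26.4 to 27.6% at 0 h. ARR11 made up 5.32 to 10.05% with mock, 8.61 to 16.9% with AtCEP5 and 14.6 to 15.4% at 0 h. The shares of ARR10 and, by a narrow gap, ARR1 did not overlap between mock and AtCEP5, and those of ARR2, ARR11, ARR12 and ARR14 did. These shares compare genes within a library, and each is bound to the others by the sum. Shares within other gene classes were not computed.

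**Figure D4:**
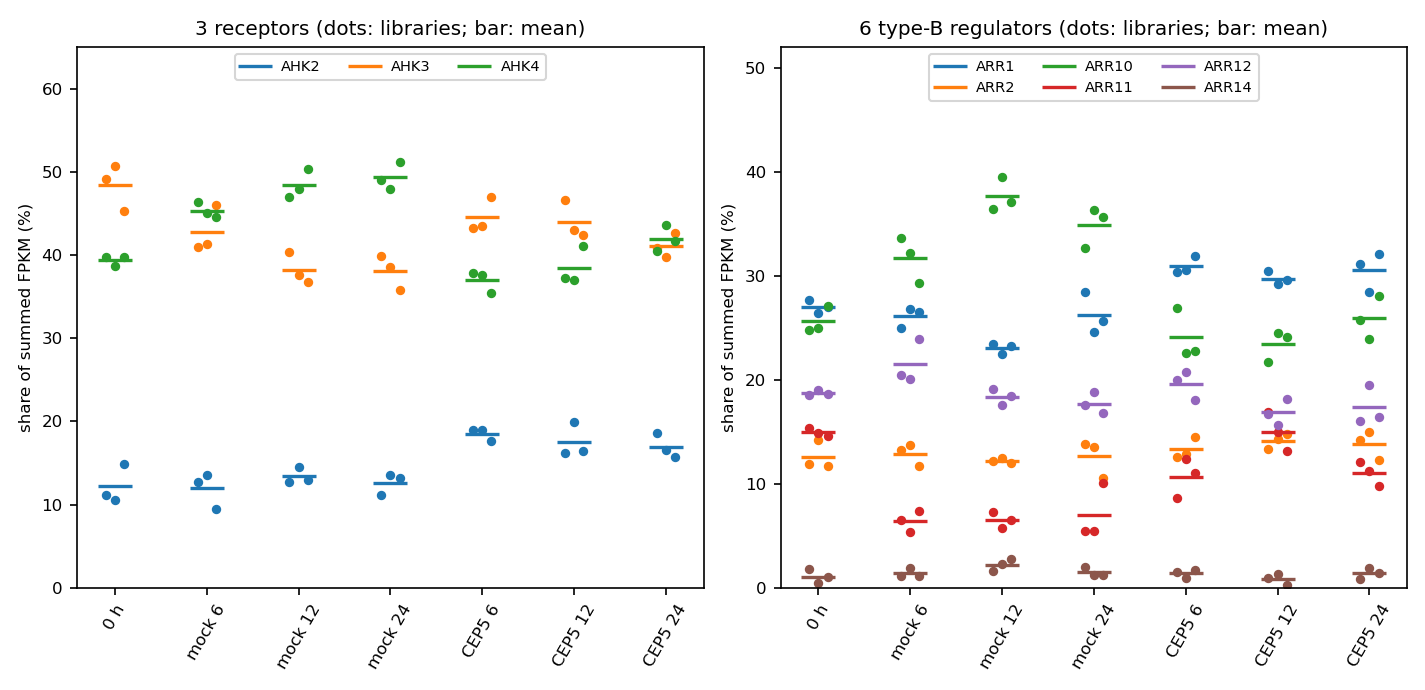
Share of each gene in the summed FPKM of the 3 receptors (left) and the 6 type-B regulators (right), in percent, with a dot for each library and a bar at the mean of 3. AHK4 and ARR10 take larger shares in every mock library than in any AtCEP5 library, and AHK2 and ARR1 smaller ones.

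Within groups, the levels of the receptors varied together from library to library. After removal of the group means, log2 CPM of AHK2, AHK3 and AHK4 correlated across the 21 libraries with Pearson r of 0.817 (AHK2 with AHK3), 0.881 (AHK2 with AHK4) and 0.927 (AHK3 with AHK4). ARR10 correlated with them too (r = 0.747 with AHK2, 0.624 with AHK3 and 0.629 with AHK4), ARR2 with r up to 0.590 and ARR12 up to 0.519, while ARR11 gave r between -0.07 and 0.02. With the receptors, ARR1 gave r of 0.341 to 0.479 and ARR14 r of -0.566 to -0.175. The points share library, depth and preparation, and exon lengths are 4459 to 4575 bases for the receptors and 1618 to 3358 for the regulators, with 2172 for ARR10. The mean gene length of a library, weighted by its counts, ran from 1781 to 2024 bases. In 7 of the 7 groups the library with the shortest mean length had the lowest summed receptor level, and in 4 of the 7 the library with the longest had the highest. At 6 h with mock that library, replicate 3, had 113.5 CPM for the 3 receptors, and the other 2 had 157 and 164 CPM. At 6 h the mean lengths were 1933, 1871 and 1816 bases with mock and 1963, 1943 and 1892 with AtCEP5. A fit with mean gene length as a covariate was added after the data were seen. With the covariate AHK2 and AHK3 both passed at 6 h and at 12 h, with AHK3 at 0.32 (adjusted p = 0.0263) and 0.33 (0.0163). Without it these AHK3 values were 0.48 and 0.30. The part of gene length in the receptors' differences was not tested beyond this fit. With the covariate 5, 6 and 3 of the 9 genes passed at 6, 12 and 24 h, and the same 5 passed in the average. Calls over all genes also rose with the covariate at 6 and 24 h, as given below, so the counts at those times do not set the 9 genes apart. No count over all genes is given here for 12 h, so the 6 of 9 genes there cannot be set against one.

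**Figure D5:**
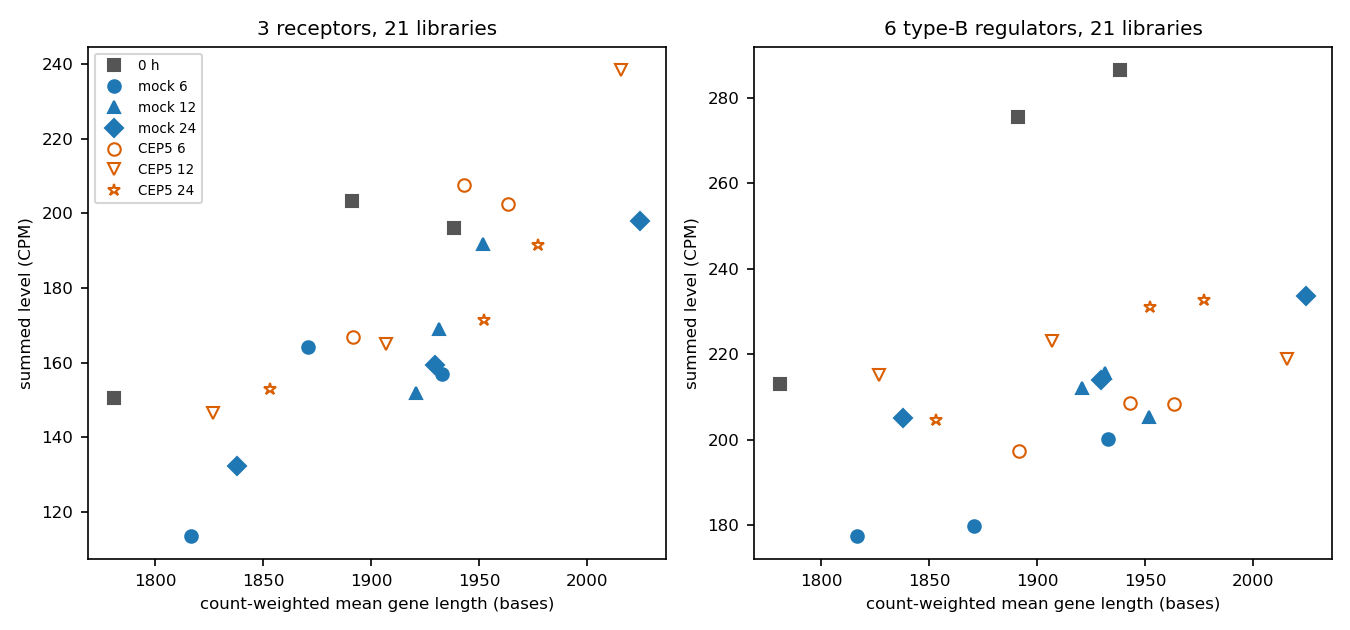
Summed level in CPM (y axis) of the 3 receptors (left) and the 6 regulators (right) against the count-weighted mean gene length of each of the 21 libraries (x axis, bases), with a symbol for each group. In each group the leftmost library is the lowest for the receptors, from 113.5 CPM at 1816 bases with mock at 6 h upward.

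Across all 21 libraries and without removal of group means, ARR1 and ARR11 had the highest correlation between any pair of these genes (Pearson r = 0.825), followed by AHK2 with AHK3 (0.725). ARR10 with ARR11 gave -0.348. These values rest on libraries that fall into the treatment groups and are descriptions only. For each gene the most similar of 18867 genes by log2 CPM over the 21 libraries was looked up. ARR11 was most like HON4 (r = 0.950), a histone H1-type protein gene, and had 54 genes above 0.9. AHK4 was most like AT5G55040 (r = 0.929), ARR1 like BXL1 (0.926), a beta-xylosidase gene, AHK3 like XDH1 (0.919), a xanthine dehydrogenase gene, and AHK2 like SIZ1 (0.911), a SUMO ligase gene. ARR10 was most like THE1 (r = 0.881), a receptor kinase gene, ARR2 like CYP709B3 (0.850), a cytochrome P450 gene, ARR12 like CEL5 (0.792), a cellulase gene, and ARR14 like AT1G31335 (0.720).

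The rest of the pathway was counted by list for the average of the 3 times, against the 30.3% of all genes called. Of the 6 AHPs, which carry the phosphate between these classes, 1 passed, AHP5 (log2 fold change 0.29, SE 0.10, adjusted p = 0.0303). Of the 10 type-A regulators, the negative feedback arm, 3 were lower and 0 higher: ARR3 (-0.62, SE 0.14, adjusted p = 0.00138), ARR15 (-1.26, SE 0.30, adjusted p = 0.00254) and ARR17 (-1.61, SE 0.39, adjusted p = 0.00301). ARR15 and ARR17 had mean levels under 2 CPM in every group. ARR5, a common reporter of the response, had -0.22 (SE 0.12, adjusted p = 0.168), and the median of the 10 was -0.25 beside 0.00 for all genes tested.

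Of the 6 cytokinin response factors, AP2-type transcription factors, CRF1, CRF2, CRF3 and CRF4 fell by log2 fold changes of -0.70, -0.71, -0.65 and -0.41 (SE 0.22, 0.16, 0.16 and 0.12). CRF6 rose by 0.33 (SE 0.11, adjusted p = 0.0303), and CRF5 had 0.06 (SE 0.14, adjusted p = 0.790). KMD1 and KMD2, F-box proteins that target type-B regulators for degradation, both rose, KMD1 by 2.23 (SE 0.31, adjusted p = 9.36e-06) and KMD2 by 0.45 (SE 0.08, adjusted p = 0.00016). KMD1 averaged 77.1 CPM ± 11.7 (SD, n = 3) at 0 h, and with mock 6.59 ± 8.14 at 6 h, 9.78 ± 2.12 at 12 h and 19.3 ± 9.78 at 24 h. With AtCEP5 it averaged 33.8 CPM ± 9.63, 81.1 ± 17.4 and 48.4 ± 31.0. KMD3 had 0 counts and KMD4 too few to test. AHK1 and AHK5, related histidine kinases, gave 0 of 2, and CKI1 and the other type-B genes ARR13, ARR18, ARR19, ARR20 and ARR21 had too few counts.

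Markers of cell types were counted in the same way. Averaged over the times, 1 of the 6 stele markers passed, SUC2, a sucrose transporter of phloem companion cells, higher by a log2 fold change of 1.64 (SE 0.17, adjusted p = 1.32e-07) in all 9 AtCEP5 libraries against all 9 mock libraries. Only 2 of the 6 stele markers had a positive averaged log2 fold change, and the median of that list was -0.01. Of the 7 meristem markers, WOX5 rose by 0.42 (SE 0.14, adjusted p = 0.0246) and CYCB1;1 fell by -0.34 (SE 0.11, adjusted p = 0.0244). Of the 6 markers of differentiated root, EXPA7 (-0.39) and COBL9 (-0.54), both of root hair cells, fell (SE 0.10 and 0.11, adjusted p = 0.00304 and 0.000501). The summed stele level, which includes SUC2, was 130 to 196 CPM with mock and 158 to 212 CPM with AtCEP5. That of the meristem list was 90.5 to 135 and 95.6 to 113.5 CPM, and that of differentiated root 208 to 337 and 202 to 266 CPM. The part of tissue makeup in the differences of the receptors and regulators was not tested.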

How the data were processed

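RNA of 21 root libraries was analysed from the deposited counts of reads per gene, which the authors made from poly-A libraries prepared with a TruSeq kit, per the labels' protocols. STAR 2.7.8a, StringTie 2.1.3 and HTSeq are named in the submitters' processing notes; for the genome build, the strand setting and the version of HTSeq the entry is: not given in the sources used here. The authors also deposited FPKM values, all 461492 of which above 0 were 10 times those recomputed from counts and exon lengths (tolerance 1e-06), so they were divided by 10. Coordinates are those of the deposited table, and 32532 of 32548 genes found in RefSeq TAIR10.1 had the same start and end.

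Genes were filtered with filterByExpr in edgeR 4.0.16 (R 4.3.3, limma 3.58.1), which left 19938 of 32833. Libraries were scaled with TMM factors. A quasi-likelihood test was fitted to all 21 libraries, 1 mean for each of the 7 groups, leaving 14 residual degrees of freedom. Adjustment of p-values across the genes tested followed Benjamini and Hochberg (threshold 0.05; intervals are 95%). The comparisons were AtCEP5 against mock at each time, their average, the difference among times, each group against 0 h, and the times within a treatment. Alternatives were RLE factors, DESeq2 1.42.0, no filter, the replicate number as a block, fits of the compared groups alone, removal of the 2 libraries rich in ribosomal RNA, removal of each library, and, chosen after seeing the data, mean gene length as a covariate. The test was checked on simulated counts.

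Libraries held 10334319 to 14345476 counts, and counting error is included in the spread between replicates. No source says that replicates came from separate cultures. The p-values thus set differences between groups only against the spread among these samples, and that spread may be technical. A rule for pairing asked that, for same-numbered AtCEP5 and mock libraries, every correlation of their deviations from the group means be over 0.1. It was met at 6 h and not at 12 h (-0.05 to 0.03) or 24 h (-0.19 to 0.09). The main fit paired no libraries at any time, and the replicate number entered only as a block in the alternatives. The members and the lists of pathway genes and of meristem, stele, differentiated root and shoot markers were chosen with earlier results of these data known. All 9 members are named, with the pathway genes that passed, and likeness was sought among genes with a mean of at least 1 CPM (log2 with a prior count of 2).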

Additional observations from a re-analysis of the deposited data

How the results depend on the processing

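The 5 genes called for the average of the 3 times kept their calls in every alternative run, and no fold change of the 9 genes reversed where it was called. At 6 h 5 of the 9 genes passed, in place of 3, with the replicate block in a fit of the compared libraries, and 5 with gene length as a covariate. At 12 h 6 passed with the covariate. At 24 h, in place of 0, 1 passed with RLE factors, 2 with DESeq2, 1 without the filter and 3 with the covariate. Against 0 h, AtCEP5 at 12 h went from 2 to 0 without the filter, 1 with the block over 21 libraries, 0 with its own libraries alone and 0 without the libraries rich in ribosomal RNA. Mock at 24 h went from 3 to 1 with its own libraries and 5 with the covariate, and mock at 12 h from 3 to 6, AtCEP5 at 6 h from 2 to 4 and AtCEP5 at 24 h from 1 to 4 with the covariate.

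With 1 library left out, the number of the 9 genes called was 0 to 2 at 6 h, 2 to 4 at 12 h, 0 to 1 at 24 h, 5 to 5 for the average and 0 to 0 for the difference among times and the tests within a treatment. Against 0 h it was 2 to 5, 2 to 5 and 1 to 4 for mock and 1 to 4, 0 to 2 and 0 to 2 for AtCEP5 at 6, 12 and 24 h. The cause was not tested.

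Over all genes, calls at 6 h went from 2247 to 4802 with the block and 3383 with the covariate. At 24 h they went from 1558 to 897 with the compared libraries alone, 600 with the block added and 2384 with the covariate. The difference among times went from 4 to 21 with DESeq2, 10 without the filter, 7 without the libraries rich in ribosomal RNA and 7 with the covariate. Over the mock times 803 became 1279 with DESeq2, 464 without those libraries and 1298 with the covariate, and over the AtCEP5 times 1119 became 1730 with the covariate. With compared libraries alone, mock at 24 h against 0 h went from 6996 to 4285 and AtCEP5 at 12 h from 4718 to 2909.

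At 12 and 24 h same-numbered libraries did not meet the rule used for pairing. With the block in a fit of the compared libraries, 3 and 0 of the 9 genes passed there, and with the block over 21 libraries 3, 3 and 0 at the 3 times and 5 for the average. ARR14 had 4 to 52 counts in a library, and the part of depth in its values was not tested.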
